A study of Mus musculus with 12 samples.

Results

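The platelet-derived growth factor (PDGF) family was described through 6 of the 30130 genes listed for these mouse aortas, the ligands Pdgfa, Pdgfb, Pdgfc and Pdgfd and the receptors Pdgfra and Pdgfrb, chosen by their gene symbols. RNA of whole tissue was sequenced in 7 chronic proximal thoracic aortic aneurysms (cPTAA, libraries 2, 3, 4, 6, 7, 9 and 12) and in 5 proximal thoracic aortas after sham surgery (labelled NC, called sham here, libraries 1, 5, 8, 10 and 11). Per the labels, all samples came from male C56BL/6J mice with no named genetic change. The aneurysm group received elastase (written elatase in the labels) around the aorta together with BAPN, an inhibitor of lysyl oxidases, and the sham group received normal water. The age of the mice, the time from surgery and any vehicle on the sham aortas are not given in the sources used here. No label ties a library to a separate animal, and the p-values therefore reflect sample-to-sample spread alone, which may be technical.

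PDGF ligands are secreted as disulphide-linked dimers and signal through receptor tyrosine kinases, which pair up and phosphorylate each other on ligand binding. PDGF-A binds the alpha receptor, PDGF-B binds both receptors, and PDGF-C and PDGF-D are released with a CUB domain that must be cut off before they can bind. In vessels, PDGF-B from endothelium is known for recruiting the Pdgfrb-bearing mural cells, and Pdgfra is widely used as a marker of fibroblasts.

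Each library held between 14078885 and 17493428 reads, and the members were covered by 244 to 6887 reads per library. Values below are normalised read counts, which are reads divided by one factor per library as deposited. Smooth muscle markers were present in every library, as aorta would hold, but they do not tell aorta from other smooth muscle. Some libraries stood apart in what else they held. Myh6, the cardiac myosin heavy chain, was at 5784, 10199.6 and 43557 in cPTAA 6, 7 and 9, against 13.7 to 323 in the other cPTAA libraries and 186 to 2347 in sham. Bpifa1, a secreted protein of airway lining, was at 237727 in sham 8 and 15751 in sham 11, against at most 1428 in the others. Brown adipocyte markers fell in all 7 of the 7 listed genes, and their summed level ranged from 1700.2 to 44563 in cPTAA and from 32556 to 103973 in sham. Results are therefore given for all 12 libraries and, where the call differs, without cPTAA 6, 7 and 9 and sham 8 or after adjustment for a brown adipocyte score, the mean log2 value of those 7 markers. In bulk tissue, fewer cells of a type and less RNA per cell cannot be told apart.

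Of the 6 members, Pdgfa, Pdgfc and Pdgfrb rose in the aneurysms and 0 fell. Pdgfc rose 3.32-fold, Pdgfrb 2.17-fold and Pdgfa 1.96-fold, and for each of them every aneurysm value lay above every sham value. Pdgfb, Pdgfd and Pdgfra did not pass the test. Over all 21415 genes tested, 12.9% rose, 11.1% fell and 23.9% changed in either direction at an adjusted p under 0.05, 8.02% had every aneurysm value above every sham value and 4.95% every aneurysm value below. Of the 15767 genes that reached 10 in at least 5 libraries, as the 6 members did, 2659 rose and 2311 fell. The median log2 fold change of the 6 members was 0.70, against -0.05 for all genes tested. Without cPTAA 6, 7 and 9 and sham 8, 4 members rose, the fourth being Pdgfra, where 16.9% of all genes rose and 14.8% fell. After brown adipocyte adjustment 2 rose, Pdgfc and Pdgfrb, where 4.22% of all genes rose and 2.53% fell.

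**Figure D1:**
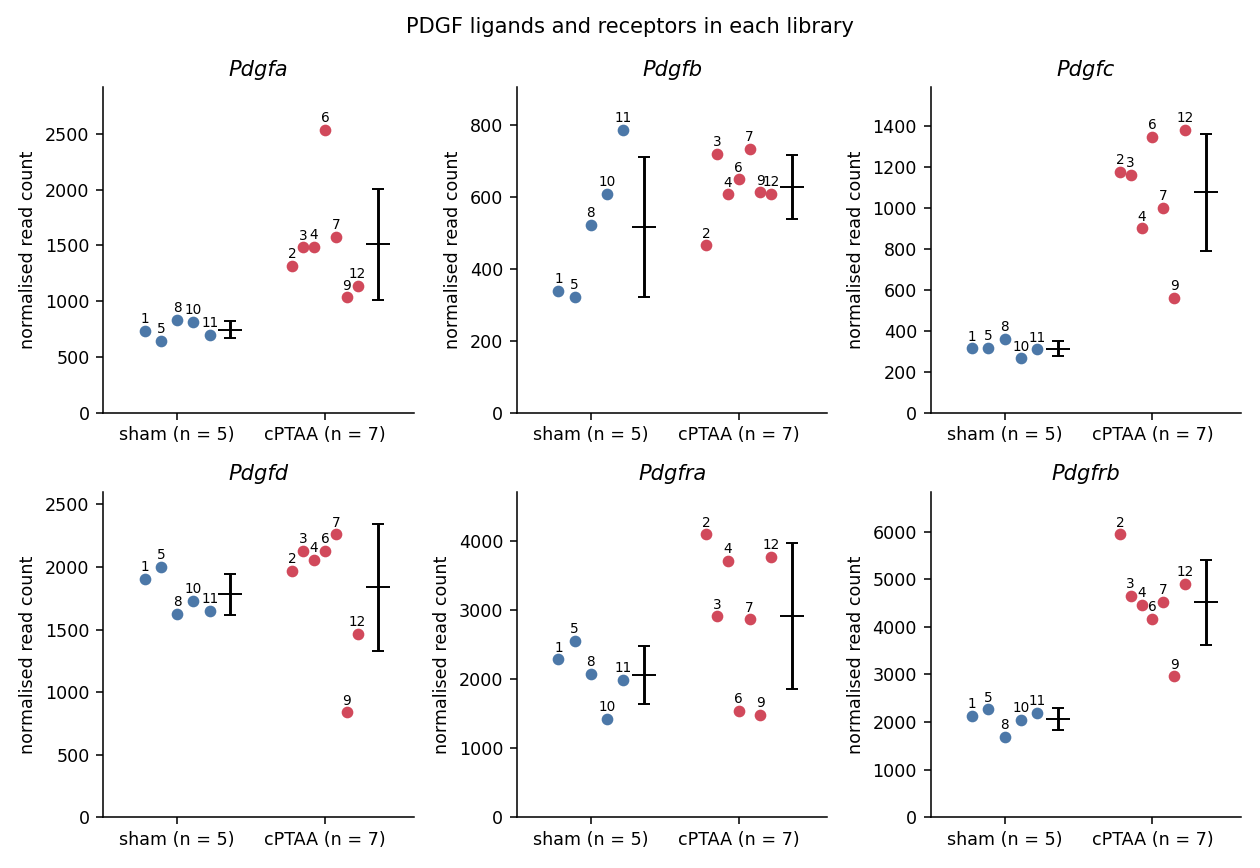
Normalised read count of each PDGF ligand and receptor (vertical axis, starting at 0) in the 5 sham (blue) and 7 cPTAA (red) libraries; numbers are library numbers, and the black bar and whiskers are the group mean ± SD. The groups do not overlap for Pdgfa, Pdgfc and Pdgfrb, while cPTAA 9 is the lowest aneurysm library for 5 of the 6 genes.

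Pdgfc, the ligand PDGF-C, had the largest change of the family. Sham aortas held 314, 317, 362, 265 and 308 normalised read counts in libraries 1, 5, 8, 10 and 11. Aneurysms ranged from 562 in cPTAA 9 to 1381 in cPTAA 12, with a median of 1159. The groups were well apart, with the lowest aneurysm above the highest sham value, and the sham values lay within 1.37-fold of each other. The means were 1075 ± 284 in cPTAA (SD, n = 7) and 313 ± 34.4 in sham (SD, n = 5), a log2 fold change of 1.73 ± 0.20 (SE) with a limma adjusted p of 2.68e-05. The 95% confidence interval of the change was 2.48-fold to 4.44-fold. Adjusted for the brown adipocyte score, the log2 fold change was 1.08 (adjusted p = 0.0231), and in the 22 alternative fits it ranged from 1.08 to 1.92 with an adjusted p of at most 0.0231.

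Pdgfa, which encodes the A chain, was at 732, 646, 832, 812 and 698 in sham 1, 5, 8, 10 and 11. Aneurysms ranged from 1033 in cPTAA 9 to 2537 in cPTAA 6, with a median of 1482. All aneurysms were above all sham aortas, and cPTAA 6 stood above the next highest aneurysm, cPTAA 7 at 1578. The means were 1509 ± 495 (SD, n = 7) and 744 ± 77.9 (SD, n = 5), a log2 fold change of 0.97 ± 0.19 (limma adjusted p = 0.00153, 95% confidence interval 1.49-fold to 2.58-fold). Without cPTAA 6 the log2 fold change was 0.83 (adjusted p = 0.000725). The call was lost after brown adipocyte adjustment, where the log2 fold change was 1.01 with a wider interval (0.35 to 1.68, adjusted p = 0.062). The strand setting of the counting was not given, and an antisense transcript, 6330403L08Rik, shares 26.1% of the Pdgfa exon bases in the GENCODE M21 annotation. Its own values, 99.3 to 242 in cPTAA and 162 to 258 in sham, did not pass the test (limma adjusted p = 0.452). Antisense transcripts share 2.89% of the Pdgfc exon bases and 4.55% of those of Pdgfra.

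Pdgfb, which encodes the B chain, did not pass. Sham values were 338, 322, 523, 609 and 787 in libraries 1, 5, 8, 10 and 11, a 2.44-fold range and the widest of the family in sham. Aneurysms ranged from 465 in cPTAA 2 to 733 in cPTAA 7, with a median of 613. The aneurysms lay inside the range of the sham aortas, since 0 of 7 exceeded sham 11 and 0 fell below sham 5. The means were 628 ± 88.9 (SD, n = 7) and 516 ± 194 (SD, n = 5), a log2 fold change of 0.35 ± 0.21 (limma adjusted p = 0.245), with an interval from 0.938-fold to 1.74-fold. Its log2 fold change was 0.22 without sham 1, 0.21 without sham 5 and 0.53 without sham 11, and its adjusted p lay between 0.0755 and 0.533 in the 22 alternative fits.

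Pdgfd, the ligand PDGF-D, was the most abundant ligand per length of exon in sham and had nearly equal group means. Sham values were 1906, 2002, 1626, 1729 and 1647 in libraries 1, 5, 8, 10 and 11. Aneurysms ranged from 838 in cPTAA 9 to 2260.5 in cPTAA 7, with a median of 2059. Of the 7 aneurysms, 4 lay above the highest sham value and 2, cPTAA 9 and cPTAA 12, below the lowest. The means were 1836 ± 509 (SD, n = 7) and 1782 ± 165 (SD, n = 5), a log2 fold change of -0.02 ± 0.22 (limma adjusted p = 0.966) with an interval from 0.718-fold to 1.36-fold. The sign of this small difference turned in several alternative fits, among them TMM scaling and the fit without cPTAA 9 (log2 fold change 0.16, adjusted p = 0.381).

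The upstream sequences of the ligands are shown because Pdgfa and Pdgfc rose with no overlap while Pdgfd did not. They are the 250 bases before the RefSeq gene start in GRCm38.p6, 5′ to 3′ on the gene's strand, for Pdgfa at chr5:138994945-138995194 (minus strand, the more upstream of its 2 entries), Pdgfc at chr3:81036166-81036415 (plus strand) and Pdgfd at chr9:6168236-6168485 (plus strand). Capitals mark matches to a searched motif on either strand.
Pdgfa: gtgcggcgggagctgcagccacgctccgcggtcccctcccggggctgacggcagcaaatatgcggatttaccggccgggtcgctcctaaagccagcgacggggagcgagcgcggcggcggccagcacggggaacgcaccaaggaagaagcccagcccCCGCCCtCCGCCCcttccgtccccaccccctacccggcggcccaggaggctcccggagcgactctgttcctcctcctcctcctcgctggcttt
Pdgfc: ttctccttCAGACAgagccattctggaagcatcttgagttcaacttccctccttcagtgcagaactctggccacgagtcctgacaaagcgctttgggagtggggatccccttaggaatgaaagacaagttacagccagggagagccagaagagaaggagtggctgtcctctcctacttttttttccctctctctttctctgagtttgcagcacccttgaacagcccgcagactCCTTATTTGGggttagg
Pdgfd: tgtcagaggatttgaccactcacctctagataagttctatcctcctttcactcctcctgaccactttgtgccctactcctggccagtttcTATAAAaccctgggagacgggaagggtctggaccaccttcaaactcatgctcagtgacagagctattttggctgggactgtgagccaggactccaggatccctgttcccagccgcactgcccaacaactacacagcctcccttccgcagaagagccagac
The motifs searched were the GC box GGGCGG, the EGR1 motif GCGGGGGCG, the AP-1 site TGANTCA, the TATA box TATAAA, the SMAD element CAGACA, the STAT element TTCNNNGAA and the CArG box of serum response factor, all on both strands. The printed Pdgfa stretch held 2 GC boxes, both on the minus strand of the printed sequence, and GC made up 72.4% of its bases. The Pdgfc stretch held 1 SMAD element and 1 CArG box, which reads as one on both strands, and had 50.8% GC. The Pdgfd stretch held 1 TATA box and had 53.6% GC. Among 32851 mouse upstream stretches of the same length, 32.7% held a GC box, 12.4% a TATA box, 17.1% the SMAD element and 1.47% a CArG box. The EGR1 motif, the AP-1 site and the STAT element, held by 2.57%, 6.75% and 7.02% of all stretches, had 0 matches in these sequences. The other Pdgfa entry held 1 GC box and the Pdgfra entry 0 matches to any motif. Of the 6 members, 4 had an entry, and Pdgfb and Pdgfrb had none.

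Pdgfrb, the beta receptor, rose in every aneurysm. Sham values were 2122, 2265, 1681, 2038 and 2193 in libraries 1, 5, 8, 10 and 11. Aneurysms ranged from 2962 in cPTAA 9 to 5944 in cPTAA 2, with a median of 4533. The lowest aneurysm was above the highest sham aorta, and the next lowest aneurysm after cPTAA 9 was cPTAA 6 at 4175. The means were 4518 ± 889 (SD, n = 7) and 2060 ± 228 (SD, n = 5), a log2 fold change of 1.11 ± 0.16 (limma adjusted p = 0.000142, interval 1.71-fold to 2.73-fold). Under brown adipocyte adjustment it was 0.87 (adjusted p = 0.0488), the least of the 22 alternative fits, in which the call was kept throughout.

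Pdgfra, the alpha receptor, did not pass with all libraries, and its call depended on which libraries were used. Sham values were 2286, 2552, 2069, 1422 and 1990.2 in libraries 1, 5, 8, 10 and 11. Aneurysms ranged from 1485 in cPTAA 9 to 4094 in cPTAA 2, with a median of 2906. Of the 7 aneurysms, 5 lay above the highest sham value, and cPTAA 6 (1539) and cPTAA 9 (1485) lay near the lowest sham value. The means were 2909 ± 1055 (SD, n = 7) and 2064 ± 419.9 (SD, n = 5), a log2 fold change of 0.42 ± 0.26 (limma adjusted p = 0.275, interval 0.906-fold to 1.98-fold). Without cPTAA 6, 7 and 9 and sham 8, Pdgfra rose by a log2 fold change of 0.83 ± 0.18 (adjusted p = 0.00503, 1.78-fold), and by voom with sample weights by 0.62 (adjusted p = 0.0287). After brown adipocyte adjustment the sign turned (log2 fold change -0.29, interval -1.09 to 0.51, adjusted p = 0.637).

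**Figure D2:**
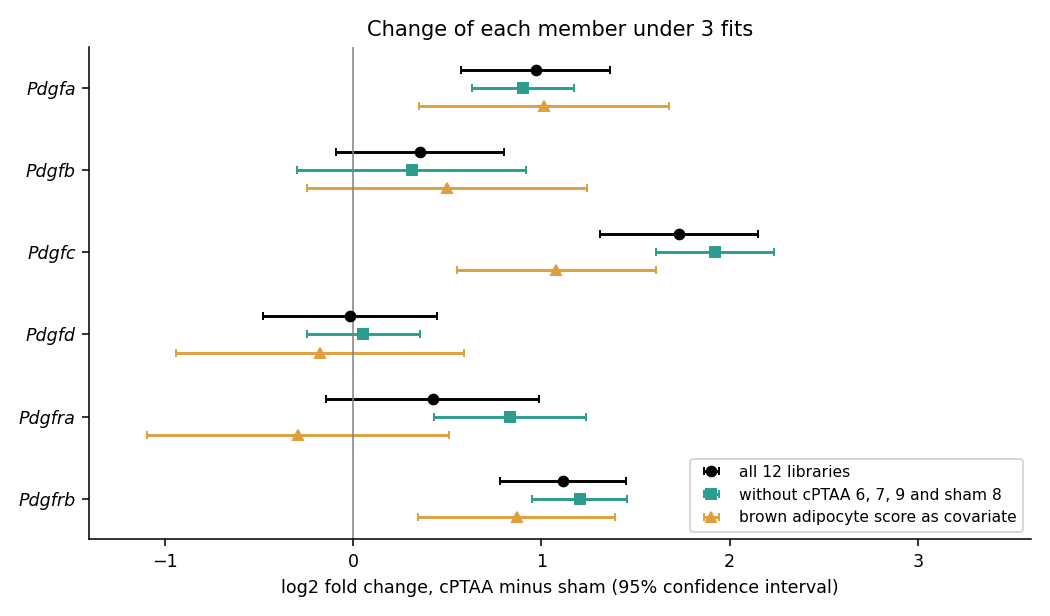
Log2 fold change of each member, cPTAA minus sham, with its 95% confidence interval, in the fit of all 12 libraries (circles), without cPTAA 6, 7 and 9 and sham 8 (squares) and adjusted for the brown adipocyte score (triangles). The intervals of Pdgfa, Pdgfc and Pdgfrb lie above 0 in the 3 fits, and Pdgfra moves from 0.42 to 0.83 and -0.29.

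Levels of different genes were compared only per kilobase of exon, using the merged exons of all transcripts of a gene in GENCODE M21. The transcripts expressed here may be shorter, so the order of genes depends on this choice. In sham the order of the mean levels per kilobase was Pdgfd (565 ± 52.4), Pdgfrb (376 ± 41.6), Pdgfa (239 ± 24.97), Pdgfra (206 ± 41.9), Pdgfb (124 ± 46.7) and Pdgfc (61.5 ± 6.75) (SD, n = 5). Pdgfd was above Pdgfrb and Pdgfb above Pdgfc in 5 of 5 sham libraries. Pdgfa and Pdgfra did not differ beyond their spread, with Pdgfa the higher in 4 of 5. In the aneurysms the order was Pdgfrb (825 ± 162), Pdgfd (582 ± 161), Pdgfa (484 ± 159), Pdgfra (290.2 ± 105), Pdgfc (211 ± 55.8) and Pdgfb (151 ± 21.4) (SD, n = 7). Pdgfrb was above Pdgfd in all 7 aneurysms, and Pdgfb was above Pdgfc in 1 of 7. Pdgfd and Pdgfa were within their spread of each other, with Pdgfa the higher in 2 of 7. The 4 ligands summed per kilobase ranged from 979 to 1007 in sham and from 855 to 1909 in cPTAA, and the 2 receptors summed from 513 to 668 and from 689 to 1493.

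Ratios between members hardly depend on how a library is scaled, so they show which members changed unequally. Pdgfd fell relative to Pdgfc: the log2 ratio was 0.76 ± 0.38 in cPTAA (SD, n = 7) and 2.51 ± 0.22 in sham (SD, n = 5), a difference of -1.75 with no overlap (two-sided exact permutation test, p = 0.00253, adjusted p = 0.00758 over the 6 ratios). That p is the smallest the 792 arrangements of the group labels allow. Pdgfd also fell relative to Pdgfrb, from -0.21 ± 0.13 to -1.34 ± 0.37, a difference of -1.13 with no overlap (exact permutation test, adjusted p = 0.00758). Pdgfrb rose relative to Pdgfra, from 0.02 ± 0.32 to 0.71 ± 0.40, a difference of 0.69 with overlapping groups (exact permutation test, adjusted p = 0.0202). Without cPTAA 6, 7 and 9 and sham 8 these 3 differences were -1.87, -1.15 and 0.37 (exact permutation adjusted p = 0.0857, 0.0857 and 0.171). The 70 arrangements of 4 against 4 libraries allow no unadjusted p under 0.0286, and the difference between the receptors was itself smaller in those libraries. Pdgfb over Pdgfa and Pdgfb over Pdgfrb were lower by 0.62 and 0.76 on the log2 scale and did not pass (exact permutation tests, both adjusted p = 0.0515). Both passed without cPTAA 9, sham 1 or sham 5 (exact permutation tests, adjusted p = 0.0364 to 0.0436). Neither passed in the other 9 of the 12 fits with 1 library left out (adjusted p up to 0.124). Nor did they pass without cPTAA 6, 7 and 9 and sham 8 (adjusted p = 0.171 and 0.114). Pdgfa over Pdgfra differed by 0.55 (exact permutation test, adjusted p = 0.197), by 0.28 without cPTAA 6, and by 0.069 without cPTAA 6, 7 and 9 and sham 8.

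As a description of these ratios, Pdgfd made up 57.2% ± 5.60 of the 4 ligands per kilobase in sham and 40.3% ± 5.68 in cPTAA. Pdgfc made up 6.23% ± 0.745 and 14.9% ± 3.40, and Pdgfa 24.1% ± 2.49 and 33.7% ± 5.02 (SD, n = 5 sham and 7 cPTAA). Pdgfb made up 12.5% ± 4.62 and 11.1% ± 3.08. Of both receptors together, Pdgfrb made up 64.8% ± 4.98 in sham and 74.6% ± 4.92 in cPTAA. Its larger part in sham came from the division by length (10024 bases for Pdgfra and 5478 for Pdgfrb), since their mean normalised read counts there were 2064 and 2060.

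**Figure D3:**
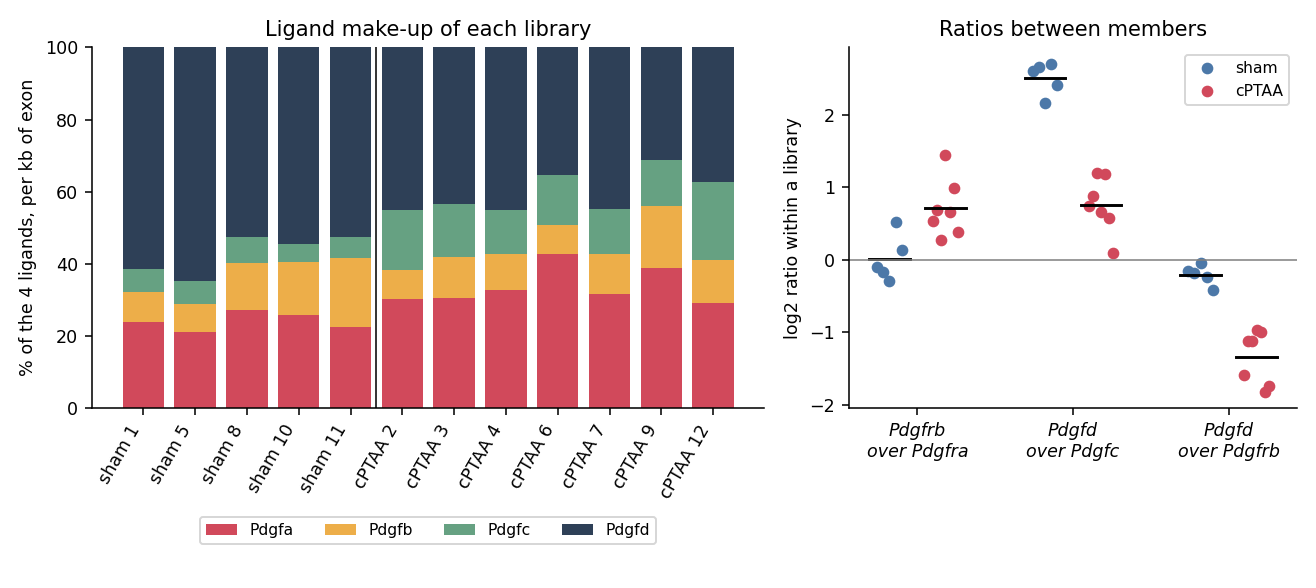
Left, each ligand's part of the 4 ligands (% per kilobase of exon) in every library, with the line dividing 5 sham from 7 cPTAA libraries; right, log2 ratios between members within each library, with bars at the group means. The Pdgfc part is larger and the Pdgfd part smaller in every aneurysm than in any sham library, and the 2 ratios with Pdgfd on top do not overlap between groups.

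Among the 7 aneurysms, cPTAA 9 held the lowest value of 5 of the 6 members, the exception being Pdgfb, which was lowest in cPTAA 2. Of all 12 libraries cPTAA 9 also had the highest Myh6, and its mitochondrial transcripts made up 15.2% of the signal, against 3.23% in the lowest aneurysm and 10.8% to 16.9% in sham. Over the 15 pairs of members in the 7 aneurysms, 0 correlations passed after adjustment and 2 had an unadjusted p under 0.05. Pdgfra and Pdgfrb had a Pearson r of 0.82 and a Spearman rho of 0.89 (exact permutation p = 0.00357 and 0.0123, adjusted p = 0.0536 and 0.0923), and r was 0.65 without cPTAA 9 and 6. Pdgfa and Pdgfd had an r of 0.68 and a rho of 0.93 (exact permutation p = 0.0103 and 0.00675, adjusted p = 0.0774 and 0.0923), and r was 0.96 without cPTAA 6 and 9. Without cPTAA 4, 1 pair passed, Pdgfra with Pdgfrb (exact permutation adjusted p = 0.0417).

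The genes most like each member were found by the Pearson r of log2 values across the 12 libraries after removal of the group means, among 12660 genes with a mean of at least 50. This is a description, in which the points share library depth and tissue make-up, and the closest of so many genes have a high r partly by selection. Pdgfc was most like Timp2 (r = 0.96), an inhibitor of matrix metalloproteinases, Mgat2 (r = 0.95), an enzyme of N-glycan branching, and Islr (r = 0.92), a marker of mesenchymal stromal cells. Pdgfa was most like Rhod (r = 0.90), a small GTPase, Htra1 (r = 0.88), a secreted serine protease, and Triqk (r = 0.88). Pdgfb was most like Brsk1 (r = 0.87), Ocel1 (r = 0.86) and Tnfrsf25 (r = 0.85). Pdgfd was most like Lhfp (r = 0.98), the transcription factor Mafk (r = 0.97) and Wnt16 (r = 0.97), a Wnt ligand. Pdgfra was most like Ece1 (r = 0.97), the endothelin-converting enzyme, Bicc1 (r = 0.97), an RNA-binding protein, and Atf7ip (r = 0.96). Pdgfrb was most like Magee1 (r = 0.97), the vesicle GTPase Rab10 (r = 0.96) and the kinase Camkk2 (r = 0.95). These likenesses rest on the spread within groups, and of the 3 genes beside each member some changed between groups and others did not: Timp2 rose with a log2 fold change of 0.92 (limma adjusted p = 0.00238), whereas Rab10 had -0.11 (adjusted p = 0.554). Some were weak within a single group. In cPTAA and sham, r was 0.92 and 0.24 for Pdgfa with Htra1, 0.99 and 0.35 for Pdgfd with Mafk, and 0.41 and 0.99 for Pdgfb with Ocel1. Others held in both, such as Pdgfd with Lhfp (0.98 and 0.97).

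Some markers of the cells that carry or make the PDGF family differed between the groups and others did not, and their part in the changes was not tested. Over all genes tested, 12.9% rose and 11.1% fell. Of the 7 smooth muscle markers 0 rose and 3 fell, with a summed level of 68521 to 265846 in cPTAA and 216432 to 294087 in sham. Much of that sum was Acta2, at 43918 to 179150 in cPTAA and 115108 to 174412 in sham, which did not pass (limma adjusted p = 0.627). Of the 6 pericyte markers 0 rose and 2 fell (9502 to 20949.7 and 17536 to 22944). Of the 7 fibroblast markers 3 rose and 1 fell (44480.1 to 61859 and 21449.8 to 41908). The fibroblast sums did not overlap between the groups, and much of them was Dcn (21706 to 29227 in cPTAA and 9679 to 21051 in sham). Of the 8 endothelial markers 0 rose and 2 fell (8506 to 13357 and 10740.2 to 15532). All 7 macrophage markers rose (13105 to 28468 and 2425 to 6481), and all 7 brown adipocyte markers fell, as given above. None of the markers of these 6 cell types was at 0 in any library. Of the 5 adipocyte markers 0 rose and 4 fell (29777 to 74889 and 59509.8 to 128664), and of the 4 mesothelial markers 0 rose and 2 fell (91.2 to 638 and 613 to 6652). Of the 5 platelet markers 1 rose and 0 fell, with summed levels of 682 to 1358 in cPTAA and 253 to 584 in sham that did not overlap. The one that rose, Pf4, is also expressed by macrophages and was at 585 to 1168 in cPTAA and 156 to 339 in sham, and Gp9 and Treml1 were each at 0 in 1 aneurysm. All 5 T cell and 4 B cell markers rose, with Trac and Ms4a1 each at 0 in 1 sham library. The cardiomyocyte markers, of which 0 of 6 rose or fell, summed to 1159 to 70415 in cPTAA and 1039 to 3812 in sham, with Nppa and Sln at 0 in some libraries.

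**Figure D4:**
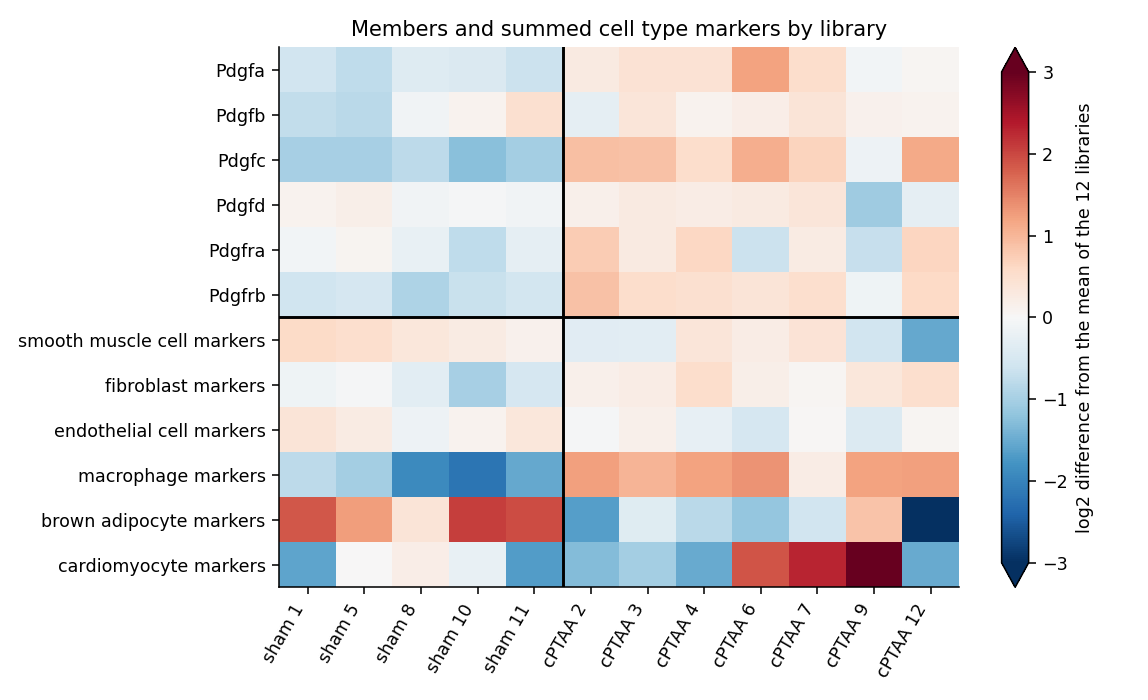
Log2 difference of each member and of the summed markers of 6 cell types from their mean over the 12 libraries (colour, with values beyond 3 shown at the end of the scale), with sham left and cPTAA right of the line. Macrophage and brown adipocyte sums differ most between the groups, and cardiomyocyte sums are highest in cPTAA 6, 7 and 9.

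Of the genes that process or bind PDGF ligands, 4 of 10 rose and 0 fell (40% called, against 23.9% of all genes), with a median log2 fold change of 0.72 against -0.05 for all genes tested. Among genes that reached 10 in at least 5 libraries, 2659 of 15767 rose and 2311 fell, a larger share than among all genes. This list and those below were chosen with earlier results of these data known, so their shares are descriptions. Plau (urokinase), a protease that can activate PDGF-D, was at 632 ± 181 in cPTAA and 149 ± 47.7 in sham (log2 fold change 2.07 ± 0.25, limma adjusted p = 4.29e-05). Lrp1, an endocytic receptor that also modulates Pdgfrb signalling, was at 11098 ± 2259 and 6513 ± 922 (log2 fold change 0.76 ± 0.17). Sparc, a matrix protein that binds PDGF-B, and the receptor-like gene Pdgfrl had log2 fold changes of 1.31 ± 0.32 and 1.16 ± 0.27 (adjusted p = 0.00796 and 0.00538). Plat, the protease that activates PDGF-C, had a log2 fold change of 0.22 (adjusted p = 0.381), and Nrp1, a co-receptor, of -0.21 (adjusted p = 0.582). After brown adipocyte adjustment 1 of the 10 rose, Plau (log2 fold change 1.70, adjusted p = 0.0267), where 4.22% of all genes rose.

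Of the 32 genes that relay the receptor signal, 8 rose and 5 fell (40.6% called, against 23.9% of all genes), with a median log2 fold change of -0.05, equal to that of all genes. Of the 15767 genes that reached 10 in at least 5 libraries, a larger share was called (2659 rose and 2311 fell). The adaptors Grb2 and Gab1, the Src-family kinase Fyn and the small GTPase gene Nras rose, with log2 fold changes of 0.56 ± 0.13, 0.47 ± 0.12, 0.58 ± 0.14 and 0.49 ± 0.14. Akt2, a kinase downstream of PI3-kinase, and Stat5a, a transcription factor, fell by 0.68 and 0.64 on the log2 scale, and the exchange factor Sos2 fell by 0.46 (limma adjusted p = 0.00219, 0.00938 and 0.0179). Plcg1, a phospholipase that the receptors engage, fell by 0.37 on the log2 scale (limma adjusted p = 0.0404) and lost its call in 14 of the 22 alternative fits. The number of rises was 5 without cPTAA 2, cPTAA 4, sham 1 or sham 8 and 4 without sham 10 or sham 11, and that of falls 3 without cPTAA 2, 4 or 6 or sham 1, 8 or 10 and 2 without sham 5 or 11. Under brown adipocyte adjustment 0 of the 32 rose and 0 fell, where only 4.22% of all genes rose and 2.53% fell.

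Of the 16 genes that limit receptor signalling, 5 rose and 0 fell, and the median log2 fold change was 0.31. The 31.2% called compares with 23.9% of all genes. It was near the share among genes that reached 10 in at least 5 libraries (2659 rises and 2311 falls of 15767). Socs3, an inhibitor of cytokine signalling, was at 503 ± 190.3 in cPTAA and 129.7 ± 59.0 in sham (log2 fold change 1.98 ± 0.31, limma adjusted p = 0.000322). Dusp6, a phosphatase of ERK, and Ptpn1, a tyrosine phosphatase that can act on PDGF receptors, had log2 fold changes of 0.79 ± 0.15 and 0.83 ± 0.17. Lrig1 and Spry1, both inhibitors of receptor tyrosine kinase signalling, had 0.73 ± 0.19 and 1.14 ± 0.35 (adjusted p = 0.011 and 0.0282). The call of Spry1 was lost without cPTAA 3, cPTAA 7, sham 1 or sham 5 (adjusted p up to 0.0775 with 1 library left out). Without cPTAA 12, 1 gene of the list fell. Adjusting for the brown adipocyte score left 0 of the 16 past the threshold, where only 4.22% of all genes rose and 2.53% fell.

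Of the 14 genes known to be induced by PDGF in cultured fibroblasts, 8 rose and 0 fell (57.1% called, against 23.9% of all genes), with a median log2 fold change of 0.98. Several of them also respond to many other stimuli. Because the list was chosen with earlier results of these data known, its share tests nothing about PDGF. The 4 with the smallest p were the chemokine gene Ccl2, the urokinase receptor gene Plaur, the matricellular gene Thbs1 and Ier3, with log2 fold changes of 4.06 ± 0.46, 1.67 ± 0.19, 5.11 ± 0.61 and 1.66 ± 0.22. The immediate early genes Fos and Egr1 had log2 fold changes of 0.31 ± 0.44 and 0.11 ± 0.26 and did not pass (limma adjusted p = 0.657 and 0.792), and Srf, which encodes serum response factor, had -0.21 ± 0.21 (adjusted p = 0.509). Of the 14, 6 rose after brown adipocyte adjustment, where 4.22% of all genes rose.

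The list of PDGF family relatives held 15 genes, for class III receptors and their ligands and for VEGF-family ligands and receptors. Of these, 7 rose and 5 fell (80% called, against 23.9% of all genes), with a median log2 fold change of 0.64. Earlier results of these data were known when the list was chosen, so this share is a description. The rises with the smallest p were in Csf1r, a receptor of macrophages, its ligand Csf1, Flt3, of dendritic cells, and Flt4, the lymphatic VEGF receptor. Their log2 fold changes were 2.37 ± 0.22, 1.16 ± 0.15, 3.48 ± 0.49 and 1.56 ± 0.24. The falls were in Vegfa, Flt1, Kdr, Kitl and Vegfb, by 1.18, 0.98, 0.99, 0.86 and 1.04 on the log2 scale (limma adjusted p at most 0.0176). Vegfa, the main angiogenic ligand, was at 1362 ± 330.5 in cPTAA (SD, n = 7) and 3049 ± 581 in sham (SD, n = 5). Vegfb lost its call without sham 10 or sham 11 (adjusted p up to 0.0585 with 1 library left out). Brown adipocyte adjustment left 2 rises, Csf1r and Csf1, and 2 falls, Vegfa and Kitl, where 4.22% of all genes rose and 2.53% fell.

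**Figure D5:**
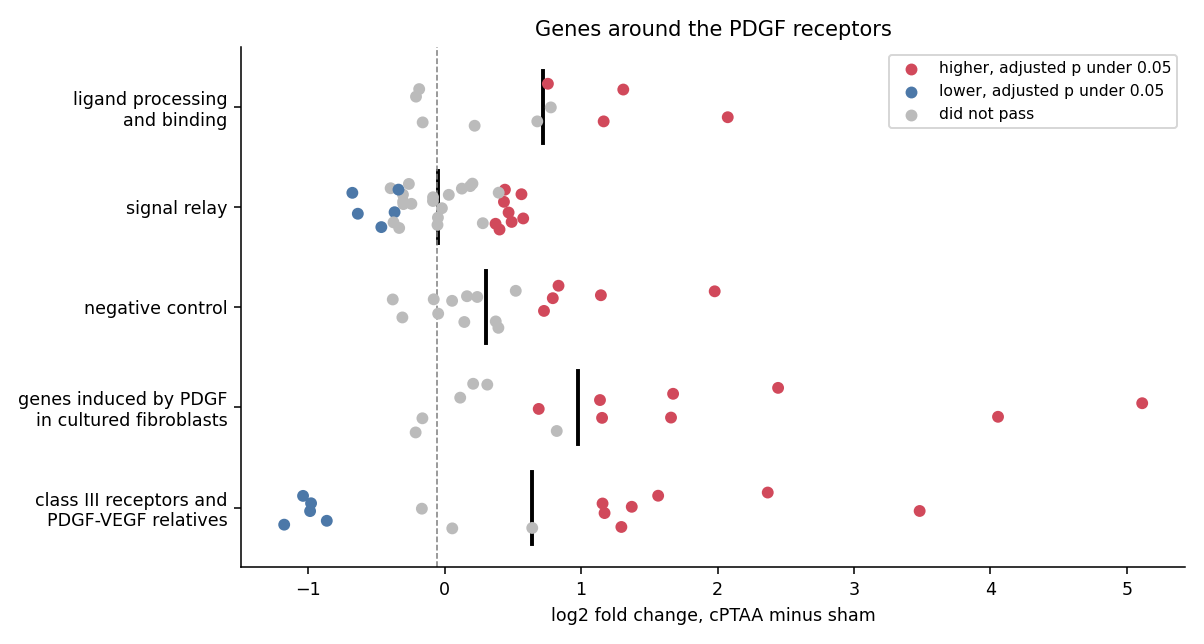
Log2 fold change, cPTAA minus sham, of each gene in the 5 lists around the PDGF receptors (points, spread vertically for view), with a bar at each list's median and a dashed line at -0.05, the median of all genes tested. Red points rose and blue points fell at an adjusted p under 0.05, and the signal relay list is centred on the dashed line.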

How the data were processed

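Per the labels' protocols, total RNA was enriched for messenger RNA with oligo-dT, and first strands were primed with random hexamers. The tools named in the submitters' processing notes are HISAT2 2.0.5, featureCounts 1.5.0-p3 and StringTie, with the genome build GRCm39. How strand and scaling were set is not given in the sources used here. The deposited signal per gene, called normalised read count, turned out to be reads over one factor per library: 100% of values were whole within 0.02 reads.

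Limma 3.58.1 (R 4.3.3), with a trended variance, was run on log2(value + 1) for the 21415 genes that reached 1 in 5 libraries (4 where a sham library was left out). P-values were adjusted by Benjamini-Hochberg over all of them, with a threshold of 0.05. Fold changes on this scale understate the change of low genes. On the recovered reads, the quasi-likelihood test of edgeR 4.0.16 called 2622 genes higher and 2261 lower of 15839. Other alternatives were DESeq2 1.42.0, voom, other scalings, filters and pseudocounts, a brown adipocyte covariate and left-out libraries. The scripts were tested on simulated data.

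The members and lists were chosen with earlier results of these data known. Of each list, every gene past the threshold was named if there were 5 or fewer in a direction, otherwise the 4 with the smallest p. Plat, Nrp1, Fos, Fosb, Junb, Egr1, Myc, Ier2 and Srf were named after their values were seen. Some genes that the rule names are not reported here. Exon lengths came from GENCODE M21 and upstream sequences from RefSeq (GRCm38.p6), both on an older build than the processing notes name. Counts differed beyond sampling noise between all libraries of a group (chi-square per degree of freedom at least 18.8).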

Additional observations from a re-analysis of the deposited data

Results flagged for a closer look

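Over 24 sets of values, the 6 members and the 6 ratios in each group, 1 value stood apart from its group. Pdgfa was at 2537 normalised read counts in cPTAA 6, where the next highest aneurysm was at 1578, a gap of 0.638 of the group's whole range, past the 95% critical value of Dixon's test for 7 libraries. Chance puts about 1 in 20 such sets past it. Without cPTAA 6, Pdgfa kept its call (log2 fold change 0.83, limma adjusted p = 0.000725).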

How the results depend on the processing

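The rises of Pdgfc and Pdgfrb passed in all 22 alternative fits and that of Pdgfa in 21, the exception being the brown adipocyte covariate (log2 fold change 1.01, limma adjusted p = 0.062). Pdgfra passed by voom (0.62) and without cPTAA 6, 7 and 9 and sham 8 (0.83) and turned sign with the covariate (-0.29). The near-zero change of Pdgfd turned sign with TMM scaling (0.0037), library totals (0.11), voom (0.14), edgeR (0.025), DESeq2 (0.040), without cPTAA 6, 7 and 9 and sham 8 (0.055) and without cPTAA 9 (0.16), cPTAA 12 (0.026), sham 1 (0.0080) or sham 5 (0.026). The cause was not tested. Leaving out 1 library gave a log2 fold change of -0.078 to 0.16 for Pdgfd and of 0.21 to 0.53 for Pdgfb.

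The brown adipocyte score itself nearly separated the groups, at 6.83 to 10.92 in cPTAA and 10.77 to 12.48 in sham. With it as covariate, 904 genes rose and 542 fell (2754 and 2374 without it), and the median SE was 0.449 against 0.302. In that fit 1 processing, 0 relay, 0 limiting and 2 relative genes rose, and 0 relay and 2 relative genes fell. Relay falls were 3 without a filter and with TMM scaling and 2 with library totals. Leaving out 1 library gave 4 to 8 rises and 2 to 5 falls in the relay list and 0 to 1 falls in the limiting list. Scaling to library totals moved the share of calls that rose from 53.7% to 64.7% (3359 rose, 1830.0 fell), and the median of all genes from -0.05 to 0.06.

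Without cPTAA 6, 7 and 9 and sham 8 the differences in the log2 ratios Pdgfrb over Pdgfra, Pdgfd over Pdgfc and Pdgfd over Pdgfrb were 0.37, -1.87 and -1.15 and did not pass the exact permutation test. The 70 arrangements of these libraries allow no unadjusted p under 0.0286. The differences with Pdgfd on top were no smaller than with all libraries (-1.75 and -1.13). That of Pdgfrb over Pdgfra was smaller than with all libraries (0.69), and the cause was not tested. Leaving out 1 library gave -0.74 to -0.42 for Pdgfb over Pdgfa, -0.95 to -0.61 for Pdgfb over Pdgfrb, 0.28 to 0.71 for Pdgfa over Pdgfra, and 0 to 1 correlated pairs. The ratios and correlations were not run with the filters, count tests or covariate, which do not apply to them or were left out. No paired analysis was possible because the groups share no library number. Depth did not limit the members, which had at least 244 reads.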
